A study of Mus musculus with 6 samples.

Results

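The genes described here make, break down and respond to retinoic acid. They are the retinoic acid receptors Rara, Rarb and Rarg, the retinoid X receptors Rxra, Rxrb and Rxrg, the synthesis enzymes Aldh1a1 and Aldh1a2, and the breakdown enzymes Cyp26a1 and Cyp26b1. They were found by gene symbol among the probe sets assigned to 1 gene, and all 10 genes had at least 1 probe set, giving 13 of the 45037 probe sets tested. RNA came from cell fractions of prepubertal mouse testis separated by magnetic sorting for the surface protein Thy1. The Thy1-positive fraction, in which transplantation had found spermatogonial stem cells enriched, and the Thy1-negative fraction, depleted of them, were each measured on 3 arrays from independent donor preparations. The labels name no transgene, mutant allele or treatment for either fraction, and give neither strain nor exact age.

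Retinoic acid is made from vitamin A in 2 oxidation steps, from retinol to retinal and from retinal to retinoic acid, and the ALDH1A enzymes carry out the last one. CYP26 enzymes of the cytochrome P450 family oxidise it to forms that are cleared. Retinoic acid binds RAR proteins, which sit on DNA as heterodimers with RXR proteins, and in the postnatal testis it starts the step from undifferentiated to differentiating spermatogonia. In mouse testis ALDH1A1 is known as an enzyme of Sertoli cells, the somatic nurse cells of the tubule, and ALDH1A2 as one of spermatocytes.

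Rarb and Cyp26a1 are textbook targets of the signal they serve. Each carries, just before the start of transcription, a retinoic acid response element in which the hexamers bound by the receptors are repeated with 5 bases between them. Cyp26b1, the other breakdown enzyme, is shown beside them for comparison. The RefSeq promoter windows of GRCm38.p6 (250 bases before to 50 after the start) are printed 5′ to 3′ on the strand of the gene, with the repeat in capitals. They lie at chr19:37697558-37697857 on the plus strand for Cyp26a1, chr14:16575427-16575726 on the minus strand for Rarb and chr6:84593761-84594060 on the minus strand for Cyp26b1.
Cyp26a1: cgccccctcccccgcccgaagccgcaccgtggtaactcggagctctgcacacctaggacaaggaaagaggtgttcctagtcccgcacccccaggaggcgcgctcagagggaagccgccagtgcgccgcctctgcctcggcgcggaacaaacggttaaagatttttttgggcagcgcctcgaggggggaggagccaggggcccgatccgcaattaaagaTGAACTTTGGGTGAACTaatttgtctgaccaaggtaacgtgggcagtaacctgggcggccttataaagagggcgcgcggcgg
Rarb: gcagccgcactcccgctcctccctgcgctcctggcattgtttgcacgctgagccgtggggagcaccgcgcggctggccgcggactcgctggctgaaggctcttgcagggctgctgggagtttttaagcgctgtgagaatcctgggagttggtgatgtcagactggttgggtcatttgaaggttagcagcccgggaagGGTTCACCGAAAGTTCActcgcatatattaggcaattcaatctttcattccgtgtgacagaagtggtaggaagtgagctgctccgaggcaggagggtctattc
Cyp26b1: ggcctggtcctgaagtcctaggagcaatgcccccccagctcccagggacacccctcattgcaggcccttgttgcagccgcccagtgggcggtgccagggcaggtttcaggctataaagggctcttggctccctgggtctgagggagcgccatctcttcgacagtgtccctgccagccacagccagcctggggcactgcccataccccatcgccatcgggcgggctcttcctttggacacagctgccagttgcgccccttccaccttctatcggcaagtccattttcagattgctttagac

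The search took any pair of the hexamers AGGTCA and AGTTCA and GGTTCA and GGGTCA in the same orientation with 5 bases between them, on either strand. In Rarb the repeat read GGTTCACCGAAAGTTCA on the strand of the gene, starting 53 bases before the transcription start. In Cyp26a1 it read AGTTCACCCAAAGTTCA on the opposite strand and began 32 bases before the start. It was found in 32 of the 32851 promoter windows of all genes (0.0974%) and in 2 of the 18 windows of the 10 member genes. Those 2 windows are the ones of Rarb and Cyp26a1, whose elements were known before the search. The share among members was thus fixed in advance and is no sign of enrichment. The same hexamers with 1 base between them were in 0.222% of all windows and with 2 bases in 0.268%, and in 0 of the 18 member windows for either spacing. A window without a match says only that these letters are not in it.

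All levels below are log2(intensity + 1) and all differences are Thy1-positive minus Thy1-negative means on that scale, with n = 3 arrays per fraction. Adjusted p is from limma with Benjamini-Hochberg adjustment over all 45037 probe sets, 2-sided, and a probe set was called below 0.05. The 3 preparations of a fraction are independent per the labels, and their number limits the precision of every value. Median intensities were 15.7 to 17.5 on the 6 arrays, and the median log2 value was 4.06 to 4.09 on Thy1-positive and 4.18 to 4.21 on Thy1-negative arrays. The 25th percentile was 2.67 to 2.68 on the 6 arrays, and a level below it is called low signal. Of all calls, 50.6% were upward in the Thy1-positive fraction, and 81.4% were when each array was centred on its own median, which moved the median difference of all probe sets to 0.13, against 0.00 as deposited. Thy1 itself, the sorting antigen, measured 6.05, 6.52 and 6.05 on Thy1-positive arrays, against 2.35, 2.35 and 2.74 on Thy1-negative arrays, its mean there being at low signal, so that it was at least 11.4-fold higher.

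The samples are mixtures of cells, so fewer cells of a type and less RNA per cell cannot be told apart in any result below. Of 10 markers of undifferentiated spermatogonia, 9 were called higher in Thy1-positive cells, with array means of 10.28 to 10.53, against 7.17 to 7.91 in Thy1-negative cells. Of 11 Sertoli cell markers, 10 were called lower, with array means of 6.27 to 7.90, against 10.42 to 10.94 in Thy1-negative cells. The remaining Sertoli marker was higher by 1.70, at an unadjusted p below 0.05 by limma, and was not called. The defining Sertoli genes Amh and Fshr had low signal in Thy1-positive cells, the only ones of the 11 that did. All 10 macrophage markers were called higher, with array means of 9.96 to 10.48, against 3.44 to 3.64 in Thy1-negative cells, and C1qa, C1qc and Cd68 had low signal there. Of the other lists, 5 of 7 peritubular myoid and 1 of 4 Leydig cell markers were called lower, 3 of 5 T lymphocyte markers higher, and 0 of 7 interstitial mesenchyme and 0 of 5 endothelial markers in either direction by limma, with 2 and 1 lower at an unadjusted p below 0.05. Of 7 markers of differentiating spermatogonia 1 was called higher, with array means of 10.32 to 10.51, against 8.73 to 10.54 in Thy1-negative cells, where array 2 lay above all Thy1-positive arrays. Of 7 meiotic prophase markers 0 were called by limma and 4 were higher at an unadjusted p below 0.05. Array 2 stood apart in both fractions. Thy1-positive array 2 had the highest Sertoli mean of its fraction (7.90) and the highest mean of interstitial mesenchyme markers (11.25, against 9.83 and 10.47 on arrays 1 and 3). Its means of macrophage (10.48), T lymphocyte (5.36) and peritubular myoid markers (6.41) were also the highest of its fraction. Thy1-negative array 2 had the highest means of its fraction for undifferentiated spermatogonia (7.91) and for meiotic prophase genes (8.94, against 6.85 and 7.43 on arrays 1 and 3). Control probe sets, which entered no test, differed as well. The intensity of the 18S ribosomal RNA 5′ probe set was 187, 33.7 and 47.6 on Thy1-positive arrays, against 336, 29178 and 12545 on Thy1-negative arrays. The 18S 3′ and middle probe sets differed far less and overlapped between fractions. On Thy1-positive arrays the 3′ set read 235, 54.9 and 120, against 67.4, 354 and 148 on Thy1-negative arrays. The middle set read 272, 55.6 and 120, against 152, 908 and 411. The intensity of the beta-actin 5′ probe set was 17977, 9114 and 15386 on Thy1-positive arrays, lowest on array 2, against 20059, 17664 and 18635 on Thy1-negative arrays. The part of these signals in the results below was not tested.

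The synthesis enzymes and Rxrb were lower in the fraction enriched for stem cells, and Cyp26a1 was higher. By the probe set with the highest mean of each gene, Aldh1a1 fell 6.57-fold, Aldh1a2 2.99-fold and Rxrb 1.49-fold. Cyp26a1 rose by 2.30 on the log2 scale, a size that depends on the floor because 2 of its 3 Thy1-negative arrays were at low signal (2.09 after raising low values to the 25th percentile and 0.96 after raising them to the array median). Of the 13 member probe sets, 5 were called (2 higher and 3 lower), where 23.4% of all probe sets were called, 11.8% higher and 11.5% lower. By gene, 4 of 10 were called, where 29.6% of all 18193 genes were: 1 was higher, where 16.4% of genes were, and 3 were lower, where 13.2% were. The fractions did not overlap for 8 of the 13 probe sets, where 43.6% of all probe sets did not overlap, and for 6 of the 10 genes, where 51.4% of genes did not. Aldh1a1 was called in each of the 6 fits that left out 1 array, the other called genes in 1 or 3 of them.

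**Figure D1:**
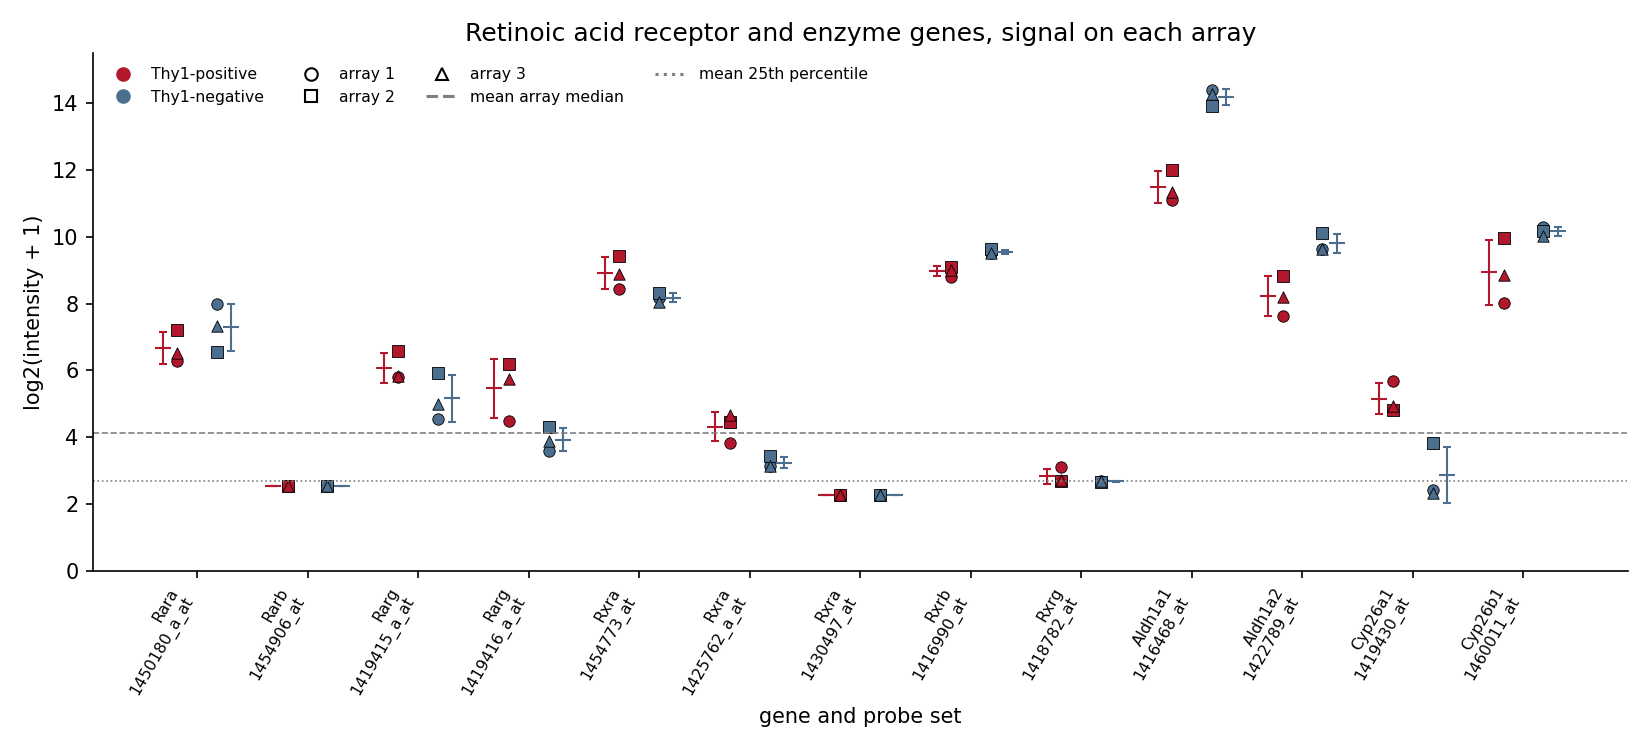
Signal of each member probe set, as log2(intensity + 1), on the 3 Thy1-positive arrays (red, left) and the 3 Thy1-negative arrays (blue, right), with the mean and SD of each fraction beside the points and marker shapes for the array number. Aldh1a1 and Aldh1a2 are lower in Thy1-positive cells and Cyp26a1 higher, while Rarb and 1 probe set of Rxra lie under the dotted line of the 25th percentile on every array.

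Aldh1a1, the retinal dehydrogenase of Sertoli cells, had intensities of 2185, 4126 and 2584 on the Thy1-positive arrays, against 21435, 15559 and 19790 on the Thy1-negative arrays. As log2 values these were 11.09, 12.01 and 11.34 in Thy1-positive cells and 14.39, 13.93 and 14.27 in Thy1-negative cells. The fractions did not overlap, and the highest Thy1-positive value was that of array 2, the array with the highest Sertoli mean of its fraction. The means were 11.48 ± 0.48 in Thy1-positive cells and 14.20 ± 0.24 in Thy1-negative cells (SD, n = 3 each), a difference of -2.72 (SE 0.29, 95% interval -3.47 to -1.96, adjusted p = 0.00735). It ranged from -2.98 to -2.52 when 1 array was left out and was called each time. Sertoli cell markers had a median difference of -4.23 in the same comparison, and their part in this result was not tested. Array 2 was also the highest Thy1-positive array for Rara, Rarg, Rxra and Rxrb at their brightest probe sets.

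Aldh1a2, the related enzyme known from spermatocytes, measured 7.63, 8.84 and 8.20 on Thy1-positive arrays, against 9.64, 10.12 and 9.64 on Thy1-negative arrays. There was no overlap between fractions, and array 2 was the highest of each. The means were 8.22 ± 0.60 in Thy1-positive cells and 9.80 ± 0.28 in Thy1-negative cells (SD), a difference of -1.58 (SE 0.36, 95% interval -2.53 to -0.64, adjusted p = 0.0403). Of the 6 fits that left out 1 array it was called only without Thy1-positive array 2, at -1.89, with an adjusted p of 0.0289. The 7 meiotic prophase markers had a median difference of 1.54, and 0 of them were called by limma in either direction. The 4 with an unadjusted p below 0.05 were higher in Thy1-positive cells. Sertoli cell markers had a median difference of -4.23 in the same comparison. The part of either cell type in this result was not tested.

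Cyp26a1, an enzyme of retinoic acid breakdown whose gene is itself induced by retinoic acid, had intensities of 50.8, 27.4 and 29.8 on Thy1-positive arrays, against 4.31, 13.3 and 4.07 on Thy1-negative arrays. The log2 values were 5.70, 4.83 and 4.94 in Thy1-positive cells and 2.41, 3.83 and 2.34 in Thy1-negative cells. The fractions did not overlap, and Thy1-negative arrays 1 and 3 were at low signal. Thy1-negative array 2, the one with the highest germ cell marker means of its fraction, lay nearest to the Thy1-positive values. That array was also the highest of its fraction for Aldh1a2, Rarg, Rxra and Rxrb at their brightest probe sets. The part of germ cells in this result was not tested. The means were 5.16 ± 0.47 in Thy1-positive cells and 2.86 ± 0.84 in Thy1-negative cells (SD), a difference of 2.30 (SE 0.52, 95% interval 0.92 to 3.67, adjusted p = 0.0402). Among the fits that left out 1 array it was called only without Thy1-negative array 2, at 2.78, with an adjusted p of 0.0109. With low values raised to either floor it was still called.

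Cyp26b1, the second breakdown enzyme, which in the fetal testis is known to keep retinoic acid from germ cells, went the other way in its mean but was not called. It measured 8.01, 9.96 and 8.84 on Thy1-positive arrays, against 10.30, 10.16 and 10.04 on Thy1-negative arrays. The fractions did not overlap, but Thy1-positive array 2 lay just below the lowest Thy1-negative value. That array had the highest means of interstitial mesenchyme, macrophage and T lymphocyte markers among all 6 arrays. Its means of Sertoli and peritubular myoid markers were the highest of its fraction. The part of any of these cell types in this result was not tested. The means were 8.94 ± 0.98 in Thy1-positive cells and 10.16 ± 0.13 in Thy1-negative cells (SD), a difference of -1.23 (SE 0.53, 95% interval -2.63 to 0.17, adjusted p = 0.190). Without that array it was -1.74 and was called, with an adjusted p of 0.0396.

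**Figure D2:**
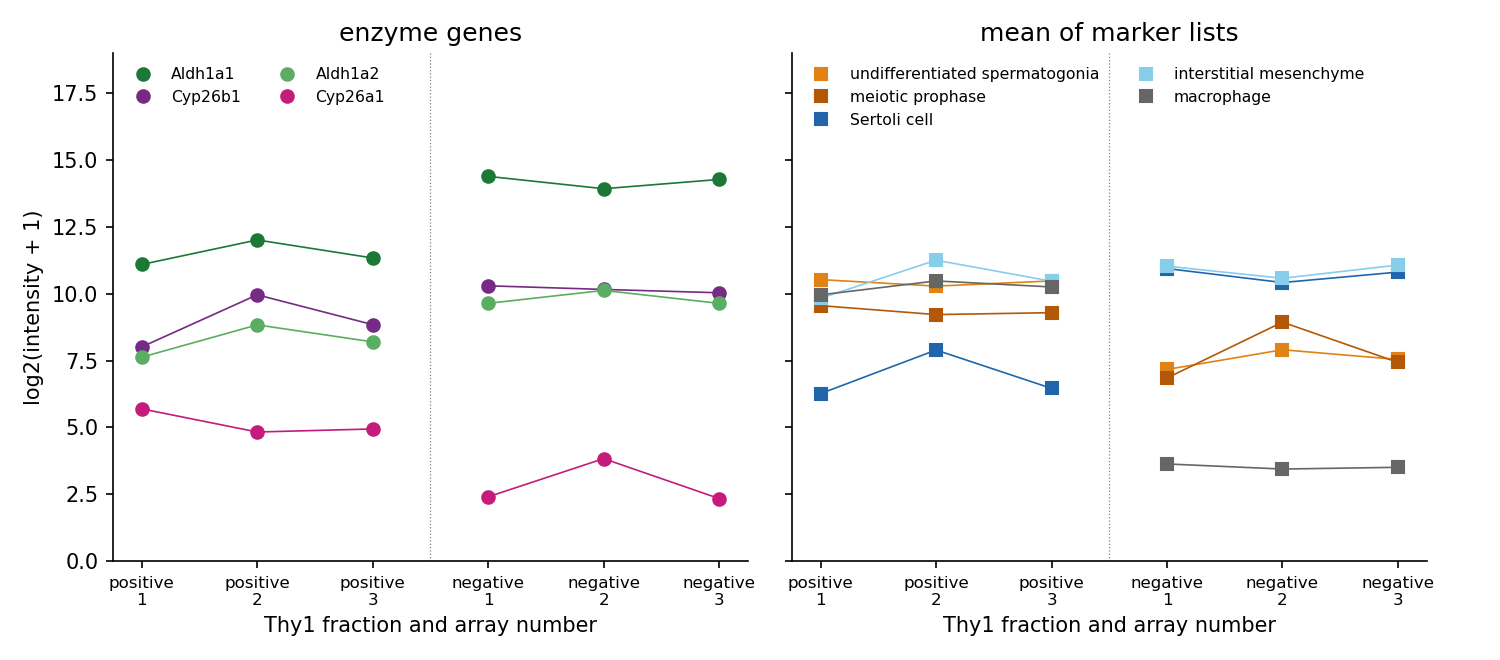
Left, log2(intensity + 1) of the 4 enzyme genes on each Thy1-positive and Thy1-negative array; right, the mean log2 value of 5 marker lists on the same arrays. Lines join the arrays of a fraction only as a guide to the eye. Thy1-positive array 2 is the highest of its fraction for Aldh1a1, Aldh1a2, Cyp26b1 and the Sertoli, mesenchyme and macrophage lists. Thy1-negative array 2 is the highest of its fraction for Cyp26a1, Aldh1a2 and the germ cell lists. Thy1-positive array 2 was also the highest of its fraction for Rara, Rarg, Rxra and Rxrb, which are not drawn. Thy1-negative array 2 was also the highest of its fraction for Rarg, Rxra and Rxrb.

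Whether related genes changed unequally was examined by subtracting the log2 value of one from that of the other on each array, for 4 pairs of genes. Cyp26a1 minus Cyp26b1 was -2.32, -5.13 and -3.90 on Thy1-positive arrays, against -7.89, -6.33 and -7.69 on Thy1-negative arrays, so that their changes differed by 3.52, a size that depends on the low signal of Cyp26a1 on Thy1-negative arrays 1 and 3. Rxra minus Rxrb changed by 1.31 and Aldh1a1 minus Aldh1a2 by -1.13, each again without overlap between fractions. Rarg minus Rara changed by 1.54 with overlapping fractions. An exact permutation test, 2-sided, gave p = 0.1 for the first 3 pairs, the smallest that 3 arrays against 3 allow, and p = 0.2 for the last. Adjusted over the 4 pairs these were 0.133 and 0.2. With 3 arrays per fraction no pair could have reached 0.05, so the values describe these arrays and the test decides nothing. A level is not compared between genes by these values, only the change.

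Of the retinoic acid receptors none was called, and 0 of the 3 genes had an unadjusted p below 0.05 by limma at the probe set with the highest mean. Rara, the receptor known from Sertoli cells and germ cells, measured 6.28, 7.20 and 6.54 on Thy1-positive arrays, against 7.98, 6.56 and 7.34 on Thy1-negative arrays. The fractions overlapped, and the difference was -0.62 (SE 0.46, 95% interval -1.83 to 0.59, adjusted p = 0.446). The interval spans both directions, so the direction of Rara was not resolved with these arrays.

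Rarg, the receptor known from type A spermatogonia in mice, was measured by a pair of probe sets. On the brighter one, 1419415_a_at, it measured 5.80, 6.60 and 5.84 on Thy1-positive arrays, against 4.54, 5.93 and 5.01 on Thy1-negative arrays. Thy1-negative array 2 lay above Thy1-positive arrays 1 and 3, and the difference was 0.92 (SE 0.45, 95% interval -0.27 to 2.10, adjusted p = 0.239). On 1419416_a_at the values were 4.47, 6.18 and 5.74 in Thy1-positive cells and 3.60, 4.30 and 3.90 in Thy1-negative cells, without overlap. That difference was 1.53 (SE 0.51, adjusted p = 0.107), and its Thy1-negative mean was below the array median. Both probe sets pointed upwards under every alternative setting, between 0.61 and 1.30 on the first and 0.99 and 2.03 on the second, the second being called in 3 of 16 settings.

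Rarb, the receptor gene with the response element shown above, was at low signal throughout. Its single probe set measured 2.54 on each of the 6 arrays, and the difference was 0.00 (SE 0.01, adjusted p = 0.947). At this signal its RNA was not detectable by this probe set in either fraction, which does not show that it is absent. Centring each array on its median gave this flat probe set a difference of 0.12 with an adjusted p of 0.00675, which is about the shift of the median probe set under that setting.

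The RXR proteins are the partners of the RARs and of several other nuclear receptors. Rxrb measured 8.81, 9.11 and 9.00 on Thy1-positive arrays, against 9.51, 9.63 and 9.51 on Thy1-negative arrays. All Thy1-positive arrays lay below all Thy1-negative arrays, with means of 8.97 ± 0.15 in Thy1-positive cells and 9.55 ± 0.07 in Thy1-negative cells (SD). The SE was the smallest of the members above the array median in both fractions, and the difference of -0.58 (SE 0.09, 95% interval -0.82 to -0.34, adjusted p = 0.0162) was called. It was called in 3 of the 6 fits that left out 1 array and ranged from -0.65 to -0.50 in them. With arrays centred on their median it was -0.46 and still called.

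Rxra had 3 probe sets that differed in call. The brightest, 1454773_at, measured 8.44, 9.42 and 8.87 on Thy1-positive arrays, against 8.17, 8.31 and 8.06 on Thy1-negative arrays, and its difference of 0.73 (SE 0.27, 95% interval 0.02 to 1.44, adjusted p = 0.135) was not called. The dimmer 1425762_a_at measured 3.83, 4.47 and 4.65 in Thy1-positive cells and 3.15, 3.43 and 3.15 in Thy1-negative cells. Its difference of 1.07 (SE 0.25, adjusted p = 0.0425) was called, and it was called in 1 of the 6 fits that left out 1 array, the one without Thy1-positive array 1. Raising low values to the array median gave 0.21 for it, which was not called. Both probe sets had fractions that did not overlap, and the third, 1430497_at, was at low signal with 2.27 to 2.28 on every array.

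Rxrg, the RXR best known from muscle and brain, was near the 25th percentile in both fractions. It measured 3.10, 2.69 and 2.71 on Thy1-positive arrays, against 2.69, 2.67 and 2.69 on Thy1-negative arrays. Thy1-positive array 1 was the highest, the fractions otherwise overlapped, and the difference of 0.15 (SE 0.12, adjusted p = 0.499) was not called.

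**Figure D3:**
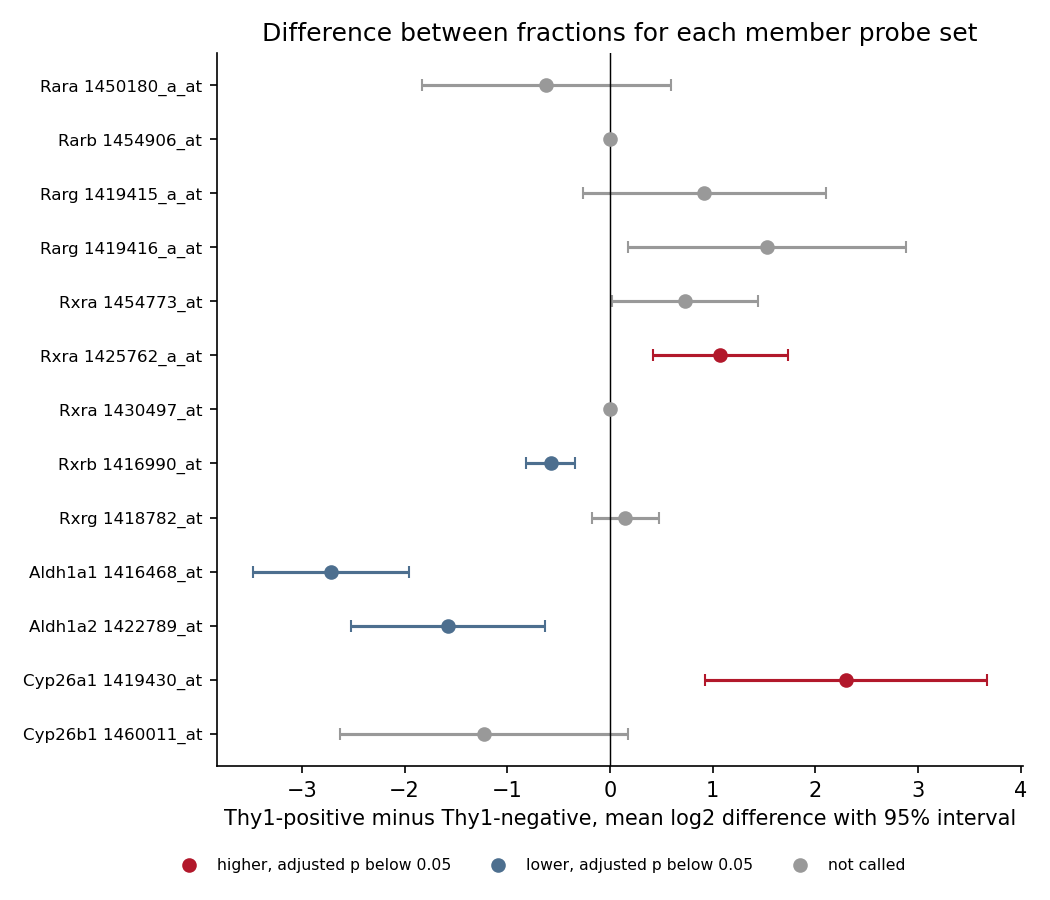
Thy1-positive minus Thy1-negative mean log2 difference of each member probe set, with its 95% interval from limma. Rxrb, Aldh1a1 and Aldh1a2 lie below 0 and were called, Cyp26a1 and 1 probe set of Rxra lie above 0 and were called, and Rarb and 1430497_at of Rxra sit at 0 with intervals too narrow to see.

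**Figure D4:**
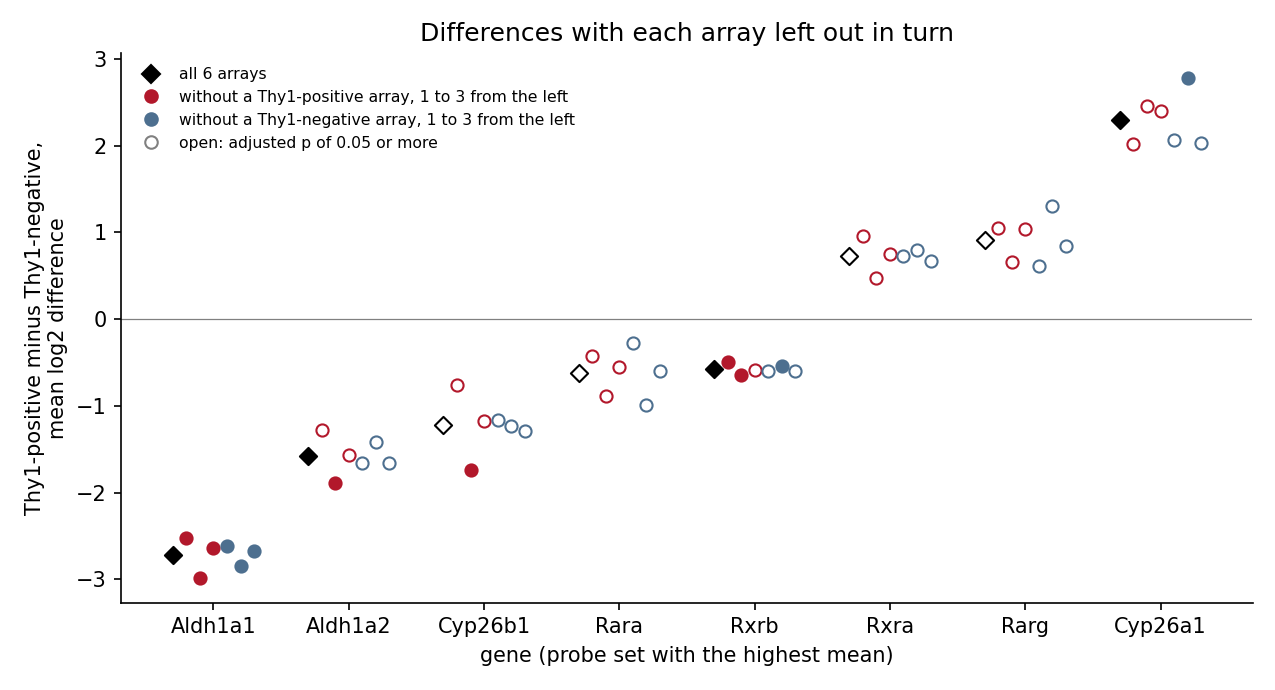
Mean log2 difference of 8 member genes with all 6 arrays (diamonds) and with each array left out in turn (circles, arrays 1 to 3 of the Thy1-positive fraction and then of the Thy1-negative fraction); filled symbols have an adjusted p below 0.05. Every symbol of Aldh1a1 is filled and lies between -2.98 and -2.52, and every gene keeps its sign.

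Beyond the members, 67 of 74 other listed genes of retinoid transport, metabolism and response were analysed. Of these, 5 were called higher and 18 lower in Thy1-positive cells, against 16.4% and 13.2% of all genes, and their median difference was 0.00, against 0.01 over all genes. Leaving out Thy1-negative array 2 gave counts of 10 and 21. Leaving out any other single array gave 1 or 2 higher and 9 to 16 lower, the fewest (1 and 9) without Thy1-positive array 3. In both fractions 12 of the 67 genes were at low signal, none of them a co-regulator. With each array centred on its median 24 of the genes were called higher and 19 lower.

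Vitamin A enters cells through the membrane receptor STRA6 and is carried inside by small binding proteins. Of 10 carrier and uptake genes 0 were called higher by limma, with 0 also at an unadjusted p below 0.05, and 2 were called lower, against a median of 0.01 for the list. Stra6 measured 4.09, 5.36 and 3.93 on Thy1-positive arrays, against 8.41, 7.22 and 7.82 on Thy1-negative arrays, a fall of 3.36 (SE 0.53, adjusted p = 0.0167). Fabp5, which binds fatty acids and can deliver retinoic acid to another nuclear receptor, fell by 1.43 (SE 0.18, adjusted p = 0.0104), and its other probe set fell by 1.02. Of 7 genes of retinyl ester storage and release 0 were called by limma and 1 had an unadjusted p below 0.05, with a median difference of 0.00. Lrat, named here for its role as the enzyme that makes the esters, was at low signal in both fractions.

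The dehydrogenases and reductases that interconvert retinol and retinal, or oxidise retinal to retinoic acid, were lower where they were called. Of 21 dehydrogenase genes 7 were called lower and 0 higher by limma, with 8 lower and 0 higher at an unadjusted p below 0.05. Aldh1a7, a mouse paralog of Aldh1a1, measured 5.44, 6.17 and 5.57 on Thy1-positive arrays, against 9.25, 8.83 and 9.18 on Thy1-negative arrays, a difference of -3.36 (SE 0.24, adjusted p = 0.00339). Its sequence is so close to that of Aldh1a1 that these probe sets may share signal, which was not tested. Dhrs7 differed by -2.72 (SE 0.46, adjusted p = 0.0192), while its other 2 probe sets were at low signal. Akr1b8, an aldo-keto reductase, differed by -2.33 (SE 0.23, adjusted p = 0.00662), and Dhrs4, which reduces retinal, by -1.76 (SE 0.31, adjusted p = 0.0213), with -1.26 and no call on its other probe set. Rdh11, Rdh10 (the main retinol dehydrogenase of the mouse embryo) and Adh5 were the other genes called lower, by differences of -1.41, -1.11 and -0.61. Aldh1a3, the third retinal dehydrogenase of this family, measured 6.30, 7.17 and 6.38 on Thy1-positive arrays, against 5.71, 5.37 and 6.26 on Thy1-negative arrays, and its difference of 0.84 (SE 0.36, adjusted p = 0.184) was not called. These last 4 genes were chosen for mention after their values were seen.

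Among co-regulators, the proteins that receptors recruit to switch genes on or off, 2 of 12 were called higher and 5 lower. Nrip1, a ligand-dependent corepressor also called RIP140, measured 6.79, 6.53 and 6.93 on Thy1-positive arrays, against 10.48, 10.17 and 10.45 on Thy1-negative arrays. It fell by 3.62 (SE 0.14, adjusted p = 0.000852), and 5 of its 6 probe sets were called lower. The p160 coactivators differed in direction at their brightest probe sets: Ncoa1 by -1.58 (SE 0.26, adjusted p = 0.0192) and Ncoa2 by -1.66 (SE 0.15, adjusted p = 0.00548), whereas Ncoa3 differed by 1.82 (SE 0.41, adjusted p = 0.0388). For Ncoa1 2 of 3 probe sets were called lower and for Ncoa2 3 of 4. The upward call of Ncoa3 rests on 1 of 2 probe sets, the other being at 0.48 (adjusted p = 0.0675) and not called. Of the paired corepressor subunits Tbl1x and Tbl1xr1, Tbl1x fell by 0.94 on 1 of 3 probe sets and Tbl1xr1 rose by 0.55 on its brightest probe set, with 3 of 6 called higher. The difference between these changes was not tested.

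Of 17 genes known to respond to retinoic acid in various cells, 3 were called higher and 4 lower, with a median of 0.00. Stra8, induced by retinoic acid as spermatogonia differentiate and enter meiosis, measured 11.06, 10.97 and 11.10 on Thy1-positive arrays, against 8.52, 10.86 and 9.46 on Thy1-negative arrays. All Thy1-positive values were the higher ones, but Thy1-negative array 2 came close to the Thy1-positive values, and the difference of 1.43 (SE 0.64, adjusted p = 0.201) was not called. Rec8, a meiotic cohesin, differed by 1.31 (SE 0.60, adjusted p = 0.216) and Kit, the receptor of differentiating spermatogonia, by 0.00 (SE 0.58, adjusted p = 1.00), both with overlapping fractions. Sohlh2, a transcription factor of spermatogonia, rose by 1.82 (SE 0.43, adjusted p = 0.0451). Tnip1 rose by 0.42 (SE 0.10, adjusted p = 0.0406), and Sp5 was called higher by 0.37 with low signal in Thy1-negative cells. Its Thy1-positive values of 2.89, 2.91 and 2.89 were also below the array median, so that it was at least 1.17-fold higher. Stra8, Rec8, Kit and Sohlh2 also stand in the germ cell marker lists above.

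The responsive genes called lower were Rarres1, Asb2, Tgm2 and Meis1. Rarres1, named for its response to retinoids, measured 3.25, 4.25 and 3.36 on Thy1-positive arrays, against 9.22, 8.31 and 9.11 on Thy1-negative arrays, a difference of -5.26 (SE 0.40, adjusted p = 0.00380). Asb2, a ubiquitin ligase subunit, differed by -2.89 (SE 0.28, adjusted p = 0.00632), Tgm2, a transglutaminase, by -2.65 (SE 0.22, adjusted p = 0.00439) and Meis1, a homeobox factor, by -2.40 (SE 0.29, adjusted p = 0.00957). On all 4 genes Thy1-positive array 2 was the highest of its fraction, as it was for the Sertoli marker mean, and the part of Sertoli cells in these results was not tested. This trait is not particular to them. Array 2 also had the highest Thy1-positive mean over the member genes (7.32, against 6.74 and 6.88 on arrays 1 and 3). The same held for the mean over all genes (6.40, against 6.32 and 6.35).

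**Figure D5:**
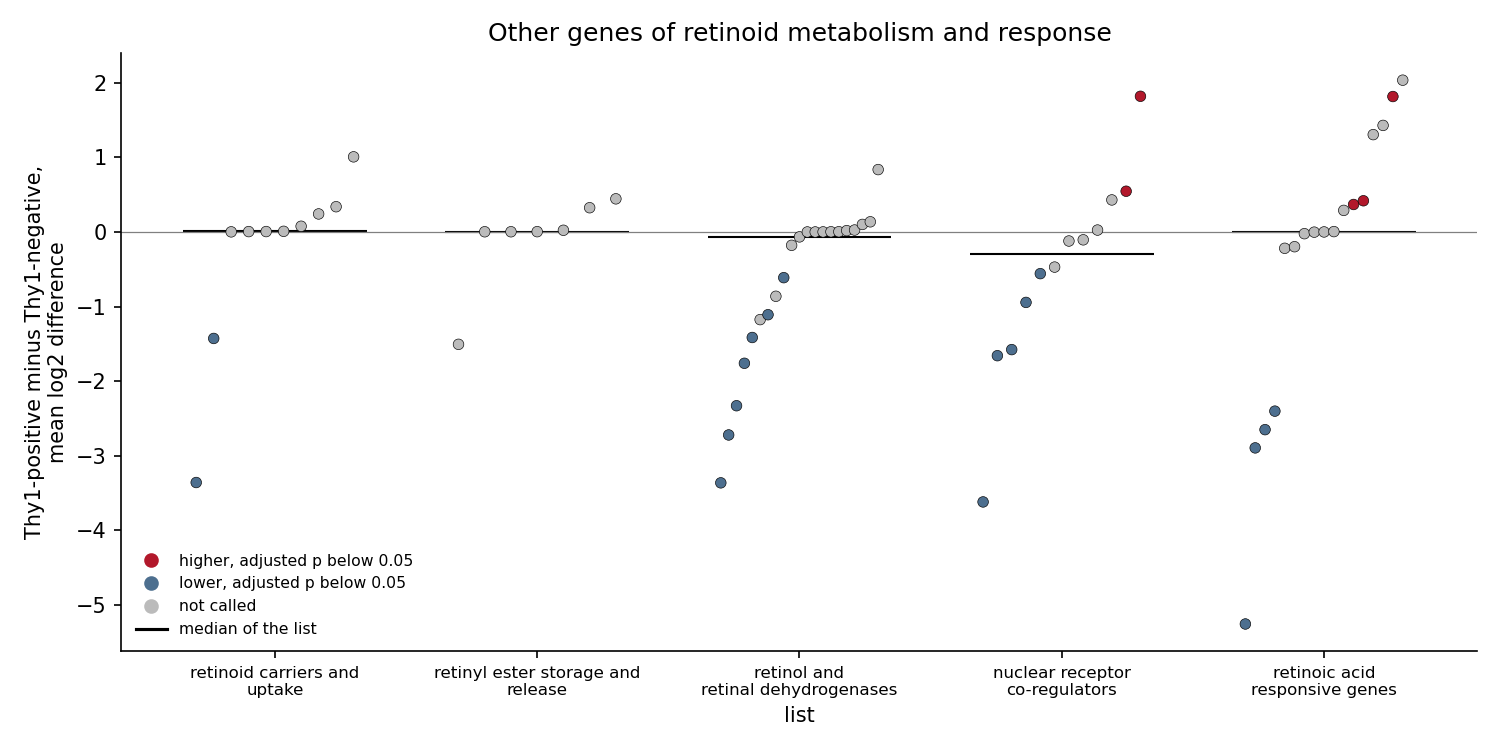
Thy1-positive minus Thy1-negative mean log2 difference of 67 other genes in 5 lists, 1 point per gene at its probe set with the highest mean, with a line at the median of each list. The called dehydrogenase genes and carriers all lie below 0, and the called co-regulators and responsive genes lie on both sides.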

How the data were processed

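Each of the 6 samples was hybridised to 1 Affymetrix mouse genome array. The deposited table gives linear intensity values, 1 for each probe set on each array. The tool named in the submitters' processing notes is GCRMA, with no version, while the sample descriptions name Affymetrix microarray suite 5.0. Which of them made the table was not settled.

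Of 45101 probe sets, 64 Affymetrix controls were left out. Each intensity was converted to log2(intensity + 1), with nothing normalized again or filtered out, and the fractions were tested in limma 3.58.1 under R 4.3.3 (functions lmFit and eBayes), fraction being the single term. Symbols came from the platform table: a single gene was named for 34945 probe sets, more than 1 for 932 and none for 9160. A gene is represented by its probe set with the highest mean. The model was tested on simulated arrays. Response elements were searched in RefSeq promoter windows (Python 3.11.15), where all 10 genes matched.

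The members, lists and tests were chosen with earlier results of these data known. Genes named beyond the members were the 4 with the largest called changes per list and direction, plus Stra8, Rec8 and Kit, and the 3 most like Cyp26a1 and Aldh1a1. Some listed genes are not reported here. Alternatives covered normalization, centring, filters, floors, pseudocount, a replicate block, the variance model, each array left out, both arrays numbered 2 left out, 1 probe set per gene, and probe sets that may cross-hybridise.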

Additional observations from a re-analysis of the deposited data

How the results depend on the processing

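The counts of member probe sets called (2 higher, 3 lower), member genes (1 and 3), other pathway genes (5 and 18) and all probe sets (5332 and 5201) changed by over 1.5 times as follows. With arrays centred on their median the higher counts were 6, 3, 24 and 25863. The 4 member probe sets gained were the low-signal ones of Rarb and Rxra, the brightest of Rxra and the dimmer of Rarg. Higher member probe sets numbered 1 with low values raised to the median, with a pseudocount of 16, with 1 probe set per gene, and without both arrays numbered 2, a setting chosen after seeing the data. With 1 probe set per gene all higher and lower calls were 3368 and 2628, of fewer tests. The labels do not say whether fractions with the same number came from 1 preparation. Deviations of same-numbered arrays correlated at -0.19, -0.17 and -0.01, and 0 of 3 numbers matched best with themselves, so the numbers were not used as pairs. With the replicate number as a block, 0 member probe sets and 0 member genes were called in either direction, 2 and 1 pathway genes and 746 and 485 probe sets; the adjusted p was 0.0860 for Aldh1a1, 0.0817 for Aldh1a2, 0.0678 for Rxrb and 0.162 for Cyp26a1. When 1 array was left out, higher and lower member probe sets ranged from 0 to 2 and 1 to 4, member genes from 0 to 1 and 1 to 4, pathway genes from 1 to 10 and 9 to 21, and all probe sets from 1639 to 6790 and 1538 to 6214. Among single named genes, 73 values lost their call, 6 gained one and 455 did neither, and no called gene changed sign. Signal near the 25th percentile limits Rarb, Rxrg and 1 probe set of Rxra to statements about detection.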

Other observations

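Promoters with the same direct repeat as Rarb and Cyp26a1 were held by 31 genes, of which 11 were analysed. Of the 9 that are not members, 0 were called in either direction by limma and 1 had an unadjusted p below 0.05, with a median difference of 0.01, and 4 were at low signal in both fractions. Tnfsf13b, a B cell growth factor, measured 3.70 in Thy1-positive cells, against 3.07 in Thy1-negative cells (adjusted p = 0.158), and Blvrb, biliverdin reductase B, 8.31 in Thy1-positive cells, against 7.47 in Thy1-negative cells (adjusted p = 0.108). Both were chosen for mention after their values were seen. Cyp26a1 was thus the single called gene among the 11, where 29.6% of all genes were called, so it does not set these genes apart. Gm14133, Hbb-y, Prokr2 and Tnfsf13b, though not at low signal, were below the array median in both fractions.

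The genes whose profile over the 6 arrays was most like that of Cyp26a1, by the Euclidean distance between mean-centred log2 values, were Snhg11 (0.48), Rhd (0.53) and Patl2 (0.53), where the median distance over all genes was 3.12. Each of them had its highest Thy1-negative value on array 2, at 6.37, 4.91 and 5.70. Those most like Aldh1a1 were Fbxo17 (0.15), Prkra (0.15) and Pank1 (0.17), where the median was 3.42. Their differences between the fractions were -2.71, -2.72 and -2.66. All of these genes were picked for their closeness over the same 6 arrays. The shared array 2 peak, the similar differences and the distances below the median follow from that choice and add no result. With 6 arrays in separate fractions such likeness describes these arrays only.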
